A study of Schizosaccharomyces pombe
Saccharomyces cerevisiae with 8 samples.

Results

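The effect of auxin on budding yeast cells in which 2 Mediator subunits carry auxin degrons was compared, gene by gene, between newly synthesized RNA and total RNA. The measure was the interaction of fraction and treatment: the log2 change with auxin in new RNA minus the log2 change with auxin in total RNA. A negative interaction means that new RNA fell further than total RNA of the same gene. Members were all features listed in both deposited tables with a mean of at least 10 raw counts in each, which gave 2821 of the 6518 features of the total RNA table. They comprised 2810 protein-coding genes, 8 small nucleolar RNA genes, 2 other non-coding RNA genes and 1 pseudogene. Of these, 1156 carried a gene name and 1665 only a systematic identifier, and 1604 of those without a name had at least 1 GO term in the deposited annotation.

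All cells were one Saccharomyces cerevisiae strain of mating type alpha, GZY380, which expressed the rice auxin receptor OsTIR1 from the GPD1 promoter and carried MED14-3HA-IAA7 and MED17-3V5-IAA7. In such cells auxin directs tagged proteins to the proteasome. The strain also had marker deletions in ADE2, HIS3, LEU2, LYS2, MET15, TRP1 and URA3, and DMSO cultures carried the same tags and receptor. For 30 min the cultures were kept with auxin (3-indole acetic acid) at 500 µM, or with its solvent DMSO alone, and 5 mM 4-thiouracil then labelled new RNA for 6 min. Each fraction was sequenced from 2 auxin and 2 DMSO samples, 8 libraries in all, after the cells had been mixed with fission yeast. The groups were new RNA with auxin, new RNA with DMSO, total RNA with auxin and total RNA with DMSO, each with 2 samples that the design text calls biological replicates. No untagged strain or strain without the receptor was analysed here, so auxin and loss of the tagged proteins cannot be told apart.

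Mediator is a large coactivator that links transcription factors to RNA polymerase II, and Med14 and Med17 form its structural core. RNA that takes up 4-thiouracil during a short pulse reports recent synthesis, whereas total RNA is the balance of synthesis and decay over a longer time. A message with a long lifetime changes slowly in total RNA after synthesis falls, and a short-lived message changes quickly. Messages of cytosolic ribosomal proteins and glycolytic enzymes are known in yeast as abundant and long-lived, and messages of many regulators as short-lived.

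The listed counts summed to 4817883 and 5882137 in new RNA from auxin cultures and 13125438 and 15744423 in new RNA from DMSO cultures, over the part of the table held here. In total RNA they summed to 10862028 and 13970025 with auxin and 17491251 and 13004246 with DMSO. The alpha genes STE3, MF(ALPHA)1 and SAG1 were present in total RNA, and the a genes AGA2 and BAR1 lay between 0 and 26.1 normalized counts. Of the tagged genes, MED17 (SRB4) was a member and MED14 (RGR1) was not in the new RNA list. A degron acts on protein, so RNA levels of these genes do not check the treatment. Replicate 2 lay above replicate 1 at the median feature in all 4 groups, by 0.13 to 0.31 on the log2 scale; whether a number joins samples was not stated.

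New RNA fell to a median of 14.4% of the DMSO level and total RNA to a median of 23.8% over the 2821 features. The median log2 change was -2.80 in new RNA and -2.07 in total RNA, and the median interaction was -0.72, with quartiles of -1.35 and -0.42 and a range of -3.19 to 0.77. By edgeR at an adjusted p below 0.05, 1541 features (54.6%) fell further in new RNA than in total RNA, and none did the opposite; at an unadjusted p below 0.05 the opposite count was also 0, and DESeq2 and limma gave 0. New RNA was called lower for all 2821 members (100%), which the listing itself fixes, and total RNA for 2654 (94.1%), with 167 not called and 0 higher. The list held only features with a deposited new RNA log2 change of -2.20 or lower, which favours negative interactions. The counts in each direction and the median interaction are therefore partly set by the list. Both total RNA libraries with auxin lay below both with DMSO for 2706 (95.9%). An interaction of -1 or less was found for 1020 features (36.2%) of -2 or less for 323 (11.4%), and of 0 or more for 55 (1.95%). In bulk RNA, fewer cells and less RNA per cell cannot be told apart.

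The 2 new RNA libraries with auxin lay at medians of 12.9% and 16.0% of the DMSO mean, and the 2 total RNA libraries with auxin at 22.0% and 25.8%. The DMSO libraries lay at 94.0% and 106% in new RNA and at 95.7% and 104% in total RNA. The difference of differences of these medians was -0.73 on the log2 scale, with a pooled SD of 0.16 between replicates. An exact two-sided permutation of the labels within each fraction gave p = 0.556 over 36 arrangements. The smallest p possible was 0.0556, but exchanging labels in 1 fraction alone gives larger differences, because RNA fell with auxin in both fractions. This permutation therefore cannot judge the interaction. The libraries numbered 1 gave a median interaction of -0.75 and those numbered 2 gave -0.76. The interaction was below 0 with both numbers for 2621 features (92.9%) and above 0 with both for 18 (0.638%).

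The common shift rested on the scaling. With TMM factors within each fraction the median interaction was 0.13 and with DESeq2 size factors 0.04, against -0.72 with the deposited size factors. Both kinds of factors were computed from the members and take the typical member as unchanged within a fraction. They bring the median near 0 by construction, so they cannot test the common shift. By edgeR on the TMM scale 795 features were lower and 749 higher, and on the DESeq2 scale 864 and 536. The 2 tables were normalized separately, and each entered only through auxin over DMSO within itself. Members are therefore described below mainly by their distance from the median feature, the relative interaction, which such a shift does not move. The median feature is that of the list, so the relative calls depend on the list too. Relative to the median feature, 635 members (22.5%) were called lower and 26 (0.922%) higher by edgeR. With TMM those counts were 908 (32.2%) and 433 (15.3%).

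The list for new RNA held only features whose deposited log2 fold change lay between -4.63 and -2.20; features with weaker changes in new RNA were not analysed here. In total RNA 1163 members had a log2 change below -2.20. Over the members the SD of the log2 change was 0.32 in new RNA and 0.79 in total RNA. The relative calls therefore largely followed the total RNA change. Of 10 classes by that change, the class that changed least had 282 of 282 members lower than the median feature. The class that changed most had 0 of 283 lower and 20 higher. The listed 2821 features had a median of -2.04 in the authors' deposited table for total RNA, and the 2768 other features tested there -1.63. CLN3, a G1 cyclin, was the member nearest the count minimum, with means of 305 raw counts in new RNA and 10.8 in total RNA, and it had the highest interaction, 0.77 ± 0.74 (SE; edgeR adjusted p = 0.355). No feature of both tables fell below the minimum.

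**Figure D1:**
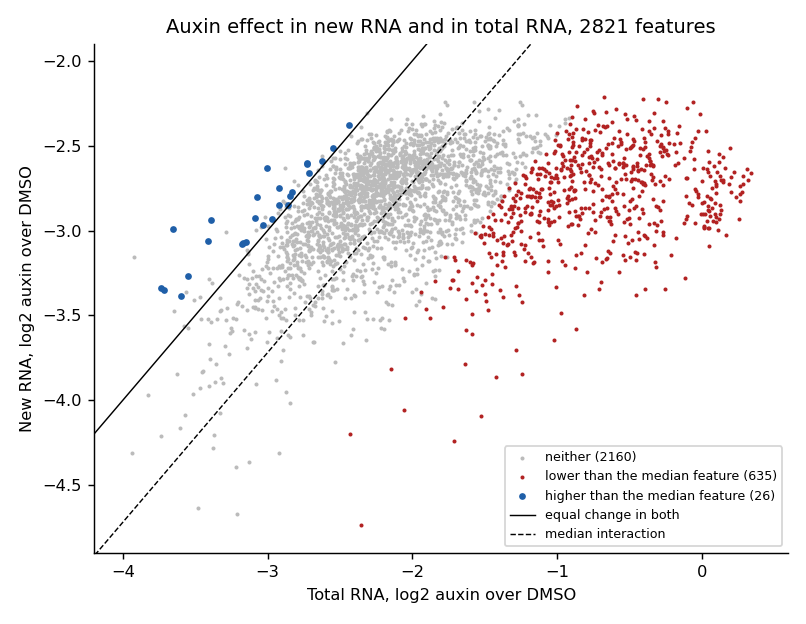
Log2 change with auxin over DMSO in new RNA (vertical) against total RNA (horizontal) for the 2821 members, coloured by the call relative to the median feature. The 635 members called lower lie mostly to the right, where total RNA changed least, and the 26 called higher lie on or left of the line of equal change.

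**Figure D2:**
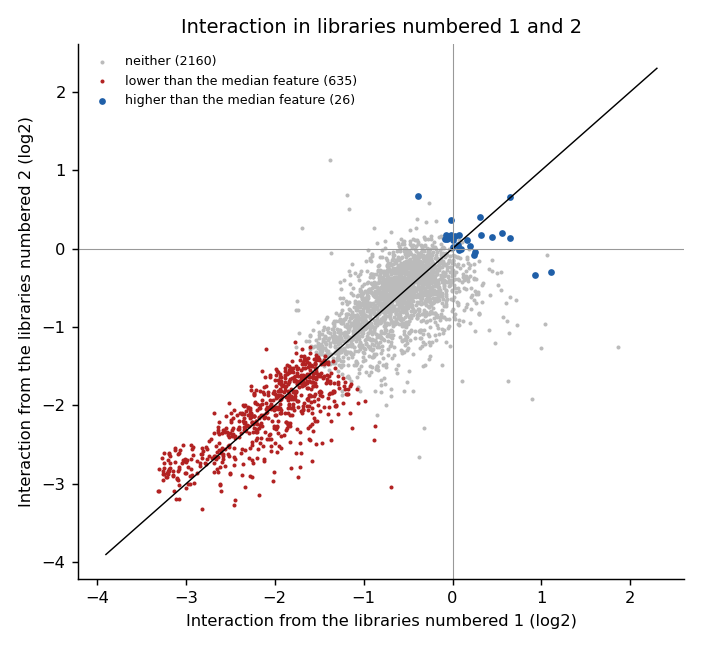
Interaction computed from the 4 libraries numbered 1 (horizontal) and from the 4 numbered 2 (vertical), log2, 1 point per member. The members called lower fall below -0.5 with both numbers, whereas several of the 26 called higher lie above 0 with only 1 number.

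Function groups were formed from the deposited GO columns and ranged in median interaction from -2.80 for cytosolic ribosomal proteins to -0.36 for mitochondrial translation. The new RNA list covered them unequally. Of the genes tested in total RNA, members made up 95.7% for glycolysis, 90.3% for cytosolic ribosomal proteins and 42.4% for mitochondrial translation. The share was 23.3% for the nuclear pore and 50.5% over all features. The share of members called lower relative to the median feature is to be read against 22.5% of all features, and the share called higher against 0.922%. Counts called lower on the authors' scale are to be read against 54.6% of all features.

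**Figure D3:**
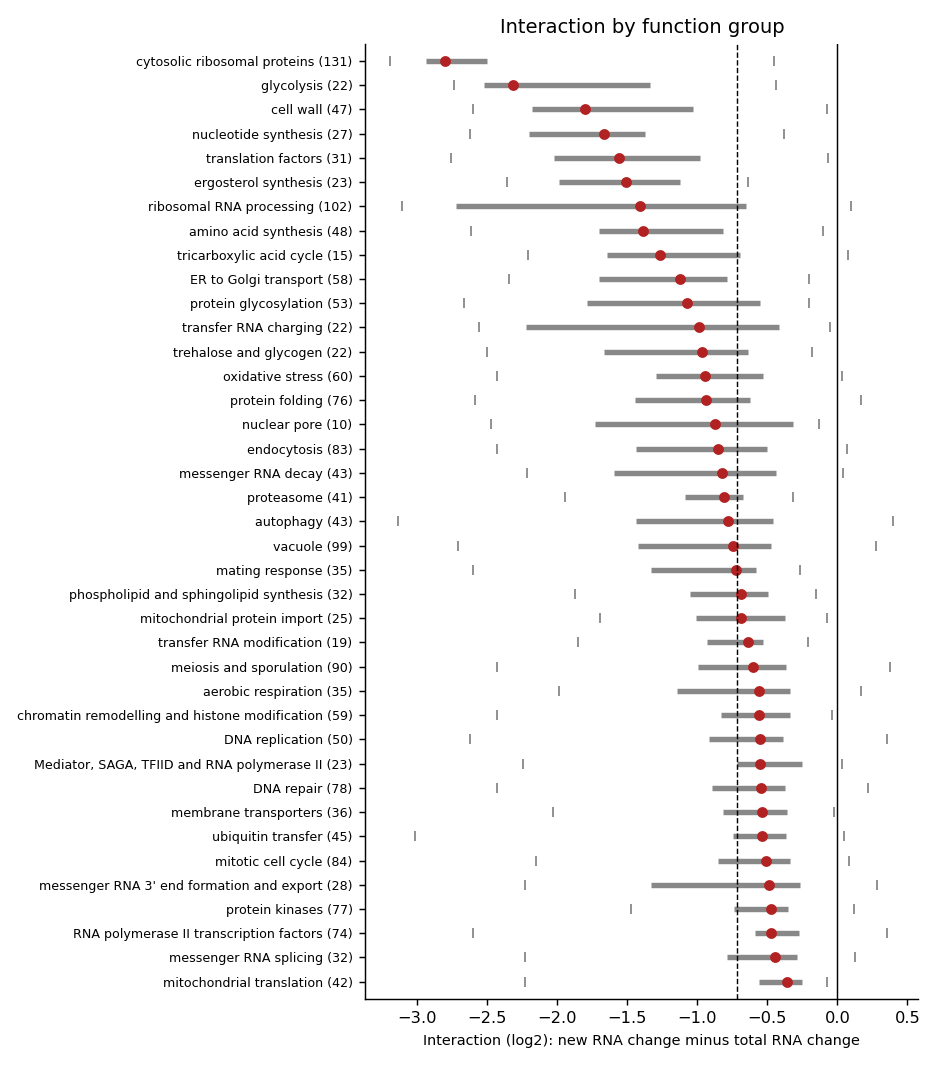
Interaction (log2) of 39 function groups from the deposited GO terms, with the number of members in brackets; points are medians, bars run between the quartiles, ticks mark the lowest and highest member, and the dashed line is the median feature at -0.72. Cytosolic ribosomal proteins, glycolysis and cell wall genes lie lowest and mitochondrial translation highest.

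Cytosolic ribosomal protein genes stood furthest from the rest. Of the 131 tested, 122 (93.1%) were lower than the median feature and 0 higher, and 127 were lower on the authors' scale. Their median log2 change was -2.83 in new RNA, which is 14.1% of the DMSO level, and -0.01 in total RNA, which is 99.5%. The total RNA change was called lower for 29 and not called for 102. Both subunits were alike, with medians of -2.80 over 58 genes annotated to the small subunit and -2.77 over 74 annotated to the large. The group supplied 122 of the 635 lower calls (19.2%).

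The lowest interaction of all belonged to RPL28 (YGL103W; chromosome VII, 310967 to 311927; build sacCer3), a large-subunit protein gene. Its normalized counts were 2010.5 and 2255 in new RNA from auxin cultures, against 16038 and 18712 in new RNA from DMSO cultures. They were 44254 and 48846 in total RNA from auxin cultures, against 35452 and 47534 in total RNA from DMSO cultures. The new RNA groups were far apart and the total RNA groups overlapped. The interaction was -3.19 ± 0.28 (SE; edgeR adjusted p = 1.70e-27), and the gene shares bases with 1 other annotated feature. RPL26B (YGR034W; chromosome VII, 555812 to 556672), whose product binds ribosomal RNA, had 1424 and 1784 in new RNA from auxin cultures, against 11124 and 13360 in new RNA from DMSO cultures. In the other fraction it had 34058 and 38567 in total RNA from auxin cultures, against 26916 and 33947 in total RNA from DMSO cultures. New RNA stood at 13.1% of the DMSO mean and total RNA at 119%, and the interaction was -3.19 ± 0.28 (SE; edgeR adjusted p = 4.21e-27).

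RPS13 (YDR064W; chromosome IV, 579458 to 580452), of the small subunit, had 2064 and 2574.5 in new RNA from auxin cultures, against 17296 and 19777 in new RNA from DMSO cultures. Its counts were 20459 and 26553 in total RNA from auxin cultures, against 19491 and 24048 in total RNA from DMSO cultures, and there the groups overlapped. RPS11A (YDR025W; chromosome IV, 491515 to 492324) had 338 and 394 in new RNA from auxin cultures, against 3377 and 4072 in new RNA from DMSO cultures. It had 3348.5 and 4651 in total RNA from auxin cultures, against 4745 and 4788 in total RNA from DMSO cultures, with total RNA at 83.9% of the DMSO mean (edgeR adjusted p = 0.211). Interactions of RPL34A (-3.16), RPL14A (-3.14), RPL23B (-3.09) and RPL35A (-3.05) completed the 8 lowest, and RPS13 and RPS11A had -3.11 and -3.09. All 8 were called lower than the median feature in each of the 16 alternative fits.

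In 7 of the 131 ribosomal protein genes, total RNA of both auxin libraries lay above that of both DMSO libraries. These were RPL35A, RPS24A, RPL23B, RPL26B, RPL40A, RPS7A and RPS23B. Their new RNA lay below, as in all 2821 members. RPS23B, of the small subunit, had the highest total RNA value of the 7, 127% of the DMSO mean (edgeR adjusted p = 0.0782), beside 15.8% in new RNA. None of the 7 changes in total RNA was called. RPS24A had 19884 and 22025 in total RNA from auxin cultures, against 14835 and 18922 in total RNA from DMSO cultures. Many ribosomal protein genes are near-identical pairs (A and B), and the division of reads between copies is not stated, so single members of a pair are uncertain.

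On the authors' scale 4 members of the group were not called lower, and they were picked out after their values were seen: YLR009W (-0.62), YGR054W (-0.60), RPS9A (-0.46) and PAT1 (-0.46). YGR054W encodes the initiation factor eIF2A and PAT1 a decapping factor, YLR009W acts in assembly of the large subunit, and none of the 3 is a structural ribosomal protein. RPS9A, a structural protein of the small subunit, had 903 and 914 in total RNA from auxin cultures, against 2876 and 3353 in total RNA from DMSO cultures, and its groups did not overlap.

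Soluble translation factors, which start and extend proteins, had a median interaction of -1.56, with 20 of 31 lower than the median feature and 0 higher. EFB1, elongation factor 1 beta, was the lowest at -2.76 ± 0.28 (SE; edgeR adjusted p = 1.84e-21), with total RNA at 79.7% and new RNA at 11.8% of the DMSO mean; it shares bases with 1 other feature. The elongation factor 2 gene YDR385W, 1 of a pair of copies and chosen here after its values were seen, had 681 and 839 in new RNA from auxin cultures, against 4566 and 5382 in new RNA from DMSO cultures. It had 6273 and 6882 in total RNA from auxin cultures, against 5937 and 7193 in total RNA from DMSO cultures, so total RNA groups overlapped. The highest member by GO term was YLL060C, a glutathione S-transferase, at -0.07 ± 0.29 (SE; edgeR adjusted p = 0.836).

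Transfer RNA charging enzymes join amino acids to their transfer RNAs. The lowest was ALA1, alanyl-tRNA synthetase of cytosol and mitochondria, and the highest MSW1, the mitochondrial tryptophanyl-tRNA synthetase. ALA1 (chromosome XV, 946233 to 949109) had 5126 and 6906.5 in new RNA from auxin cultures, against 40703 and 44751 in new RNA from DMSO cultures. It had 20012 and 22937 in total RNA from auxin cultures, against 24113 and 27550 in total RNA from DMSO cultures. MSW1 (chromosome IV, 1004004 to 1005143) had 294 and 375 in new RNA from auxin cultures, against 2279 and 2368 in new RNA from DMSO cultures. It had 106 and 150.2 in total RNA from auxin cultures, against 821 and 902 in total RNA from DMSO cultures. The groups of ALA1 overlapped in neither fraction, but total RNA kept 83.1% of the DMSO mean, against 14.9% for MSW1. Their interactions were -2.56 ± 0.27 (SE; edgeR adjusted p = 2.53e-19) and -0.05 ± 0.29 (SE; edgeR adjusted p = 0.872). Over the 22 charging enzymes 10 were lower and 0 higher than the median feature, and the group's median lay -0.27 from that of all features. Among features with a deposited log2 fold change in new RNA below -2.5 that difference was 0.20.

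The ribosomal RNA processing group had a median interaction of -1.41, and 51 of 102 were lower than the median feature. Its GO terms also take in 41 genes of the ribosomal protein group, RPS13 being the lowest member. Without those, a split added after the values were seen, the other 61 had a median of -0.68, near that of all features, with 13 lower (21.3%) and 0 higher. At the other end stood YDR478W, a subunit of ribonuclease MRP, at 0.10 ± 0.33 (SE; edgeR adjusted p = 0.783). Transfer RNA modification enzymes had 2 of 19 lower (10.5%). YGL232W, a putative tRNA acetyltransferase, was the lowest of them at -1.85 and the methyltransferase gene YOL093W the highest at -0.21.

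Small nucleolar RNAs guide modification and cleavage of ribosomal RNA, and 8 of the 72 tested in total RNA were members. SNR17B, a U3 gene with a near copy elsewhere, had 392 and 489.7 in new RNA from auxin cultures, against 3018 and 3716 in new RNA from DMSO cultures. It had 17462 and 20418 in total RNA from auxin cultures, against 27690 and 26524 in total RNA from DMSO cultures, and its interaction was -2.42 ± 0.28 (SE; edgeR adjusted p = 2.19e-16). In snR190 and snR67 the interactions were -1.88 and -1.67, and both were lower than the median feature. SNR76 was the highest at -0.27, and 4 of the 8 were lower than the median feature, with 0 higher. Libraries numbered 1 and 2 gave group medians of -0.68 and -1.95.

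**Figure D4:**
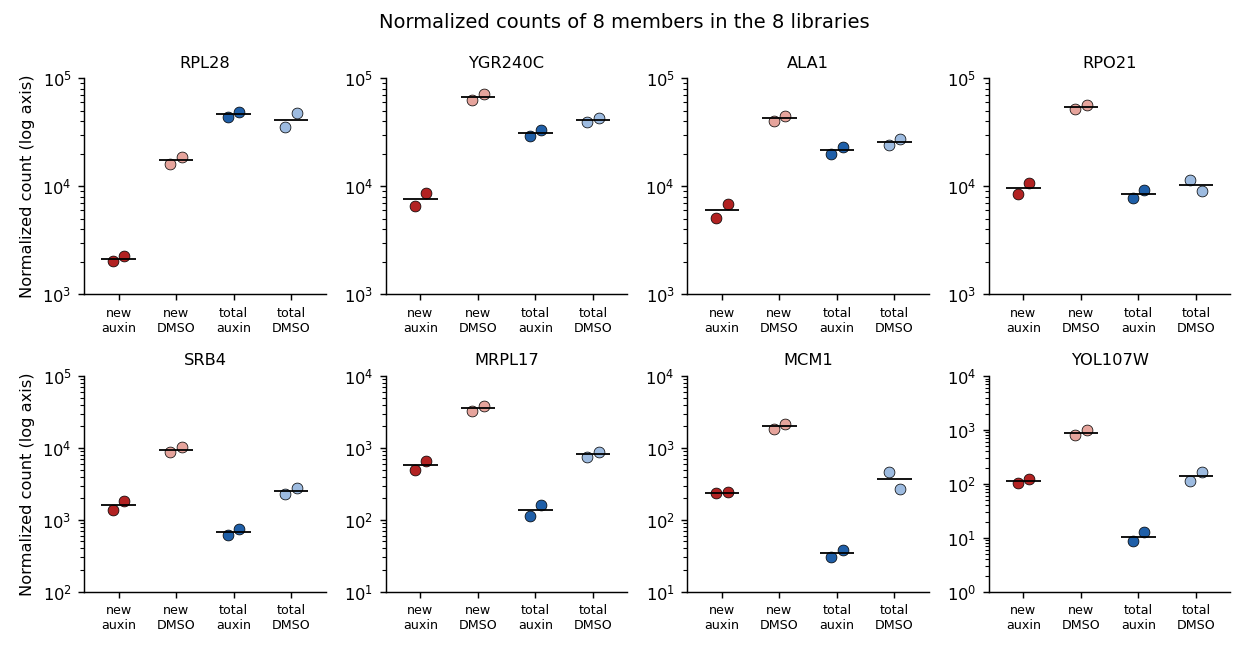
Normalized counts (log axis, its range differing by panel) of 8 members in the 4 groups; points are libraries and bars are group means. In RPL28, YGR240C, ALA1 and RPO21 new RNA with auxin lies far below new RNA with DMSO while both total RNA groups lie close together; in SRB4, MRPL17, MCM1 and YOL107W both fractions lie far lower with auxin.

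Mitochondrial translation, the machinery that makes the few proteins encoded in mitochondrial DNA, lay at the opposite end from cytosolic ribosomal proteins. Its 42 members had a median interaction of -0.36, 0.36 above the median feature, with new RNA at 16.0% and total RNA at 20.5% of the DMSO level. Lower than the median feature was 1 of 42 (2.38%) and higher 0; with TMM 2 were lower and 22 higher. On the authors' scale 5 were lower: YDR341C, an arginyl-tRNA synthetase (-2.23), YFR049W, a subunit of a dehydrogenase (-1.20), the elongation factor TUF1 (-0.94), the ribosomal protein genes YHL004W (-0.77) and MRPS18 (-0.66). Those 5 were named after their values were seen.

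The 30 genes described as mitochondrial ribosomal proteins, a list drawn up after values were seen, had interactions from -0.77 to -0.07, with a median of -0.31. Their log2 change in total RNA lay between -2.64 and -1.92. MRPL17 (chromosome XIV, 171441 to 172286), of the large subunit, had 494 and 655 in new RNA from auxin cultures, against 3291 and 3871 in new RNA from DMSO cultures. Its counts were 115 and 161 in total RNA from auxin cultures, against 753 and 890.0 in total RNA from DMSO cultures. Groups did not overlap in either fraction, and new RNA and total RNA stood at 16.0% and 16.9% of their DMSO means. The interaction of MRPL17 was -0.07 ± 0.30 (SE; edgeR adjusted p = 0.822); under TMM and DESeq2 scaling it was above 0 and called.

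Other mitochondrial groups lay between these ends. Aerobic respiration genes had a median of -0.56 and 6 lower and 1 higher of 35. The higher one was YLR393W, an ATP synthase assembly factor, at 0.17. That call was lost without new RNA DMSO replicate 1 (0.90), new RNA DMSO replicate 2 (0.87), total RNA auxin replicate 2 (0.72) or total RNA DMSO replicate 1 (0.69), as relative interactions, against 0.89 with all libraries. Protein import genes had 2 of 25 lower than the median feature. Their ends were TOM71, an outer membrane receptor, at -1.69, whose call relative to the median feature (-0.98) was lost without total RNA auxin replicate 2 (-0.79) or total RNA DMSO replicate 2 (-0.91), and YME1, a protease of the inner membrane, at -0.08. Enzymes of the tricarboxylic acid cycle differed, with a median of -1.27 and 6 of 15 lower than the median feature (40.0%). YGR244C, the beta subunit of succinyl-CoA ligase, was the lowest at -2.21 ± 0.29 (SE; edgeR adjusted p = 2.19e-13), and total RNA kept 61.4% of the DMSO mean, against 13.3% in new RNA.

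Glycolysis, the breakdown of glucose, was next to ribosomal proteins among the 39 groups, with a median interaction of -2.32. Of its 22 members 16 (72.7%) were lower than the median feature and 21 lower on the authors' scale. Median levels were 13.8% of DMSO in new RNA and 66.2% in total RNA. The lowest was YGR240C (chromosome VII, 970771 to 973734), the alpha subunit of phosphofructokinase, a regulated enzyme of the pathway. Its normalized counts were 6612 and 8609 in new RNA from auxin cultures, against 63108 and 71017 in new RNA from DMSO cultures. They were 28998 and 33257 in total RNA from auxin cultures, against 39230 and 42966 in total RNA from DMSO cultures. Neither fraction's groups overlapped, and the interaction was -2.74 ± 0.27 (SE; edgeR adjusted p = 2.39e-22). The beta subunit gene YMR205C, named after its value was seen, stood close by at -2.68 ± 0.27 (SE; edgeR adjusted p = 7.48e-21). The one member not called on the authors' scale was YOL056W, a homolog of phosphoglycerate mutase, at -0.44; total RNA of that gene fell to 21.3% of the DMSO mean. ENO1, an enolase, had -2.71 and was the lowest of the vacuole group, to which it is also annotated.

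Nucleotide synthesis had 20 of 27 lower than the median feature (74.1%) and a median interaction of -1.67. RNR2, the small subunit of ribonucleotide reductase, was its lowest member at -2.62 ± 0.29 (SE; edgeR adjusted p = 1.53e-18) and shares bases with 1 other feature. Total RNA of RNR2 stood at 75.8% of the DMSO mean (edgeR adjusted p = 0.0465) and new RNA at 12.3%. The highest member was YMR300C, the first enzyme of purine synthesis, at -0.38.

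Amino acid synthesis had 21 of 48 lower than the median feature (43.8%) and a median of -1.39. LYS9, of lysine synthesis, had 408 and 442 in new RNA from auxin cultures, against 3243.5 and 3803 in new RNA from DMSO cultures. It had 2713 and 2982 in total RNA from auxin cultures, against 3593 and 4089 in total RNA from DMSO cultures, and the interaction was -2.62 ± 0.29 (SE; edgeR adjusted p = 3.24e-18). YML082W, a putative carbon-sulfur lyase, stood at the other end at -0.10. Ergosterol synthesis, which makes the main yeast sterol, had 23 of 23 lower on the authors' scale and 14 lower than the median feature. The sterol oxidase gene YGR060W led at -2.36 ± 0.29 (SE; edgeR adjusted p = 5.39e-15). YNL156C, a regulator of sterol synthesis, was at -0.64. Its call was lost in 6 of the 8 fits that left out 1 library, all but those without new RNA auxin replicate 2 or total RNA auxin replicate 1, at -0.74 to -0.50, and under TMM its interaction was 0.21 and not called.

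Storage carbohydrate, lipid and transporter genes lay nearer to all features. Trehalose and glycogen genes had 6 of 22 lower than the median feature, led by YKL127W, a phosphoglucomutase, at -2.5. Phospholipid and sphingolipid genes had 5 of 32, from the fatty acid elongase FEN1 at -1.87 to FLC1, a flavin carrier, at -0.15. Membrane transporters had 4 of 36, namely YIL088C (-2.03), the nicotinamide riboside carrier NRT1 (-2.0), the thiamine carrier THI7 (-1.73) and the inositol carrier ITR2 (-1.63). These 4 were named after their values were seen. NRT1 had log2 changes of -4.06 in new RNA and -2.06 in total RNA, and total RNA of the other 3 changed by -1.16 to -0.77.

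Cell wall genes had a median interaction of -1.8, with 27 of 47 lower than the median feature (57.4%). New RNA of the group fell to a median of 10.9% of DMSO against 14.4% over all features, beside 33.7% in total RNA. YLR110C (chromosome XII, 369697 to 370098), a wall mannoprotein, had 415 and 471 in new RNA from auxin cultures, against 5594 and 7158 in new RNA from DMSO cultures. It had 752 and 813 in total RNA from auxin cultures, against 1692 and 2014 in total RNA from DMSO cultures. Groups did not overlap, new RNA stood at 6.95% and total RNA at 42.3% of the DMSO means, and the interaction was -2.61 ± 0.29 (SE; edgeR adjusted p = 8.41e-18). YNL327W, a wall glucanase needed for cell separation, had 976 and 1346 in new RNA from auxin cultures, against 9652 and 11670 in new RNA from DMSO cultures. It had 75.1 and 106 in total RNA from auxin cultures, against 882 and 702 in total RNA from DMSO cultures, close to the same fall in both fractions, with an interaction of -0.07 ± 0.31 (SE; edgeR adjusted p = 0.832). The medians with libraries numbered 1 and 2 were -1.53 and -2.06.

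Genes of the early secretory path, which carries proteins to the surface and vacuole, had medians below all features. Endoplasmic reticulum to Golgi transport had 20 of 58 lower than the median feature (34.5%), with YIL039W, which remodels lipid anchors, at -2.34 ± 0.29 (SE; edgeR adjusted p = 9.27e-15) and YPR176C, a prenyltransferase subunit, at -0.21. Protein glycosylation had 19 of 53 (35.8%), from PMI40, mannose phosphate isomerase, at -2.66 ± 0.29 (SE; edgeR adjusted p = 5.20e-19) to MNN4, a regulator of mannose phosphate transfer, at -0.20. Endocytosis had 21 of 83 (25.3%) and the vacuole 22 of 99 (22.2%), near the share of all features. ACT1, actin, was the lowest of the endocytosis group at -2.43 ± 0.28 (SE; edgeR adjusted p = 9.89e-17), and total RNA of actin stood at 66.1% of the DMSO mean. In the nuclear pore group 4 of 10 were lower; YGR026W, of unknown function, had -2.48 and the nucleoporin gene YMR153W -0.13.

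Mediator, SAGA, TFIID and RNA polymerase II together had a median interaction of -0.55, with 1 of 23 lower and 1 higher than the median feature. These 23 were the members among 80 genes of the group tested in total RNA. RPO21, the largest subunit of RNA polymerase II, was the exception on the low side. RPO21 (chromosome IV, 205360 to 210561) had 8408 and 10811 in new RNA from auxin cultures, against 52555 and 57167 in new RNA from DMSO cultures. Its counts were 7851 and 9229 in total RNA from auxin cultures, against 11507 and 9086 in total RNA from DMSO cultures, with overlap between the groups. The interaction of RPO21 was -2.24 ± 0.27 (SE; edgeR adjusted p = 4.57e-15).

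Genes of 11 Mediator subunits, a list completed after values were seen, were members. Their interactions ran from -0.91 for SSN2 to 0.04 for ROX3, and total RNA changed by -2.85 to -1.73 on the log2 scale. SRB4, the gene of Med17, had 1390 and 1828 in new RNA from auxin cultures, against 8689 and 10173 in new RNA from DMSO cultures. It had 617 and 742 in total RNA from auxin cultures, against 2270 and 2812 in total RNA from DMSO cultures, and groups did not overlap in either fraction. The interaction of SRB4 was -0.65 ± 0.28 (SE; edgeR adjusted p = 0.0417) and its relative interaction 0.07 ± 0.28 (SE; edgeR adjusted p = 0.894). That call on the authors' scale was lost without new RNA auxin replicate 1 (-0.47), without new RNA DMSO replicate 1 (-0.76) or 2 (-0.53), without total RNA auxin replicate 2 (-0.51) and without total RNA DMSO replicate 1 (-0.50), and the sign turned under TMM and DESeq2 scaling. SSN2 and SRB8, of the kinase module, had -0.91 and -0.86, and both share bases with another feature. ROX3 (Med19) had a relative interaction of 0.75 ± 0.29 (SE; edgeR adjusted p = 0.0401), and its call was lost in 6 of the 8 fits that left out 1 library, all but those without new RNA auxin replicate 1 or 2, at 0.71 to 0.81.

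Sequence-specific transcription factors of RNA polymerase II had 2 of 74 lower than the median feature (2.70%) and 1 higher, with a median interaction of -0.47. The 2 lower ones, named after their values were seen like the next 2, were CAM1 (-2.60), an elongation factor subunit that also carries this GO term, and HAC1 (-1.57), a regulator of the unfolded protein response that shares bases with 1 other feature. GCN4, the activator of amino acid synthesis, had -1.41 ± 0.28 (SE; edgeR adjusted p = 2.81e-06), and ABF1, a general regulatory factor, -0.80. Total RNA of the whole group fell to a median of 19.0% of DMSO, against 23.8% over all features, while new RNA fell to 13.9%. All 74 were called lower in total RNA, as were 2654 of all 2821 members (94.1%).

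Chromatin enzymes had a median of -0.56 and 6 of 59 lower than the median feature. YDR334W, the ATPase that exchanges histone H2AZ, was the highest of them at -0.04. Splicing genes had a median of -0.45, with 3 lower and 2 higher of 32. The helicase gene YDL084W, of the export complex TREX, was the lowest at -2.23 ± 0.28 (SE; edgeR adjusted p = 8.33e-15), and its total RNA was not called lower. YLR016C, of the complex that retains unspliced messages, was the highest at 0.13; its relative call (0.85) was lost in 5 of the 8 fits that left out 1 library, all but those without new RNA auxin replicate 2, total RNA auxin replicate 2 or total RNA DMSO replicate 1, at 0.66 to 0.87. Genes of 3' end formation and export had 5 of 28 lower. Decay factors had 14 of 43 lower (32.6%), from YNL085W, a nuclease-like protein, at -2.21 to YNL288W, of CCR4-NOT, at 0.04.

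Proteasome genes, whose products degrade tagged proteins, had an SD of the interaction of 0.38, against 0.72 over all features. Protein kinases and mitochondrial translation had smaller SDs, 0.35 and 0.36. Of 41 members 31 were lower on the authors' scale and 5 lower than the median feature (12.2%): YBR082C, a ubiquitin-conjugating enzyme (-1.95), the regulatory particle subunits RPN1 (-1.63) and RPN2 (-1.56), the scaffold gene YHL030W (-1.61) and the assembly chaperone gene YGR232W (-1.46), 4 of them named after their values were seen. Another assembly chaperone gene, YIL007C, was the highest at -0.32. Folding factors had 20 of 76 lower (26.3%), led by SSB1, a chaperone bound to ribosomes, at -2.59 ± 0.27 (SE; edgeR adjusted p = 7.40e-20); total RNA of SSB1 stood at 93.2% of the DMSO mean. Ubiquitin transfer genes had 5 of 45 and autophagy genes 11 of 43, and the lowest member of both was a ribosomal protein gene. Without the ribosomal protein group those counts were 3 of 43 and 9 of 41. ATG1, the kinase that starts autophagy, had 0.12. Its relative call (0.84) was lost in 6 of the 8 fits that left out 1 library, all but those without new RNA auxin replicate 1 or 2, at 0.78 to 0.93.

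Protein kinases had 2 lower and 1 higher of 77 and a range of -1.47 to 0.12. HSL1 and GIN4, kinases of the bud neck, were the 2 lowest at -1.47 and -1.43. The relative call of HSL1 (-0.75) was lost in 7 of the 8 fits that left out 1 library, all but that without new RNA auxin replicate 2, at -0.80 to -0.68. The relative interaction of GIN4 was -0.72 ± 0.28 (SE; edgeR adjusted p = 0.049). SNF1, the glucose-sensing kinase, stood at -0.74 and, like GIN4, was picked after its value was seen. Mitotic cell cycle genes had 6 of 84 lower, from YRB1, a Ran binding protein, at -2.15 to the kinetochore gene MTW1 at 0.08. DNA replication had 7 of 50, DNA repair 6 of 78 and meiosis 10 of 90 lower than the median feature. Mating response genes had 8 of 35 (22.9%) and oxidative stress genes 11 of 60 (18.3%). PTC1, a phosphatase of the osmotic stress kinase, was the highest of the mating response group at -0.27.

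The 26 members called higher than the median feature had interactions of 0.01 to 0.66 on the authors' scale, and none was called there. The number depended on single libraries: it was 41 without new RNA auxin replicate 2, 8 without new RNA DMSO replicate 1, 6 without new RNA DMSO replicate 2, 13 without total RNA auxin replicate 1, 8 without total RNA DMSO replicate 1 and 16 without total RNA DMSO replicate 2. In total RNA all of them fell by at least 2.44 on the log2 scale. YOL107W (chromosome XV, 112102 to 113130), of unknown function, had 103 and 123 in new RNA from auxin cultures, against 816 and 981 in new RNA from DMSO cultures. It had 8.55 and 12.6 in total RNA from auxin cultures, against 112 and 163 in total RNA from DMSO cultures, so total RNA fell to 7.96% of the DMSO mean and new RNA to 12.6%. Its relative interaction was 1.38 ± 0.39 (SE; edgeR adjusted p = 0.0025). Total RNA of this gene rested on 9 and 15 raw counts with auxin and 122 and 119 with DMSO.

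MCM1, a transcription factor for mating type and cell cycle genes, had 235 and 243 in new RNA from auxin cultures, against 1858 and 2126.5 in new RNA from DMSO cultures. It had 30.4 and 38.6 in total RNA from auxin cultures, against 465 and 269 in total RNA from DMSO cultures, and neither pair of groups overlapped. Its relative interaction was 1.07 ± 0.32 (SE; edgeR adjusted p = 0.0039), and without total RNA DMSO replicate 1 it was 0.59 and not called. UME1, a subunit of the Rpd3 histone deacetylase, had 523 and 681 in new RNA from auxin cultures, against 3431 and 4037 in new RNA from DMSO cultures. It had 28.5 and 55.4 in total RNA from auxin cultures, against 409.6 and 269 in total RNA from DMSO cultures, a relative interaction of 1.09 ± 0.32 (SE; edgeR adjusted p = 0.0041). The call of UME1 was lost without total RNA auxin replicate 1 (0.82) or total RNA DMSO replicate 1 (0.73).

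The remaining highest members were DOT6, a repressor of ribosome biogenesis genes, with a relative interaction of 1.17 ± 0.44 (SE; edgeR adjusted p = 0.034), YJL083W, an autophagy factor (1.12), YOR107W, a negative regulator of glucose signalling (1.08), YJL100W, a phosphatidylinositol kinase (1.00), and AIM22, a lipoate ligase (0.99). DOT6 rested on 8 and 8 raw counts in total RNA with auxin and 92 and 48 with DMSO. The call of DOT6 was lost without new RNA auxin replicate 1 (1.17), new RNA DMSO replicate 2 (1.08), total RNA auxin replicate 1 (1.37), total RNA auxin replicate 2 (0.97) or total RNA DMSO replicate 1 (0.94). That of YJL083W was lost without total RNA auxin replicate 2 (1.15), that of YOR107W without total RNA auxin replicate 1 (0.92), that of YJL100W without total RNA auxin replicate 2 (0.89) or total RNA DMSO replicate 1 (0.79), and that of AIM22 without new RNA DMSO replicate 2 (0.94) or total RNA auxin replicate 1 (0.86). YOL107W kept its call in each of the 8 fits that left out 1 library.

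The 1665 features without a gene name had a median interaction of -0.66, with 279 (16.8%) lower and 17 (1.02%) higher than the median feature; the 1156 with a name had -0.81, 356 and 9. Without the ribosomal protein group, 234 of the 1027 other named features (22.8%) were lower than the median feature. Of the ribosomal protein group 2 carried only an identifier. The lowest unnamed features, picked after values were seen, include both phosphofructokinase subunits, elongation factor 2, the triose phosphate isomerase gene YDR050C (-2.60), the wall glucanase gene YGR282C (-2.57) and YGL089C (-2.57). YGL089C encodes the second alpha-factor pheromone, and new RNA of that gene fell to 5.86% and total RNA to 34.8% of the DMSO mean. YNL208W, described as of unknown function and possibly bound to ribosomes, had 321 and 322 in new RNA from auxin cultures, against 2974 and 3565 in new RNA from DMSO cultures. It had 1965 and 2355 in total RNA from auxin cultures, against 3527 and 3524.5 in total RNA from DMSO cultures, an interaction of -2.64 ± 0.29 (SE; edgeR adjusted p = 2.66e-18). The 298 members described as of unknown function had a median of -0.59 and 40 lower and 5 higher than the median feature.

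The interaction was next described by features that its groups share. Members were placed in 10 classes by total RNA level per kb of coding length in DMSO. The median interaction was -0.54 in the lowest class, -0.48 in the third, -0.79 in the seventh and -2.29 in the highest. The median change of new RNA was -3.04 in the lowest class and -2.72 in the highest, and that of total RNA -2.51 and -0.41. In the highest class 227 of 282 members were lower than the median feature, and in the lowest class 8 of 283.

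Classes by the ratio of new to total RNA in DMSO, a ranking set across tables that were normalized separately, ran the other way. The median interaction was -2.33 in the class with the lowest ratio, where 262 of 283 were lower than the median feature, and -0.50 in the highest, where 14 of 282 were. The ratio and the interaction share the DMSO libraries. With the ratio taken from libraries numbered 1 and the interaction from those numbered 2, the ends were -2.31 and -0.67, and with the numbers exchanged -2.34 and -0.30. In both directions most of the change lay in the 4 classes with the lowest ratio.

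**Figure D5:**
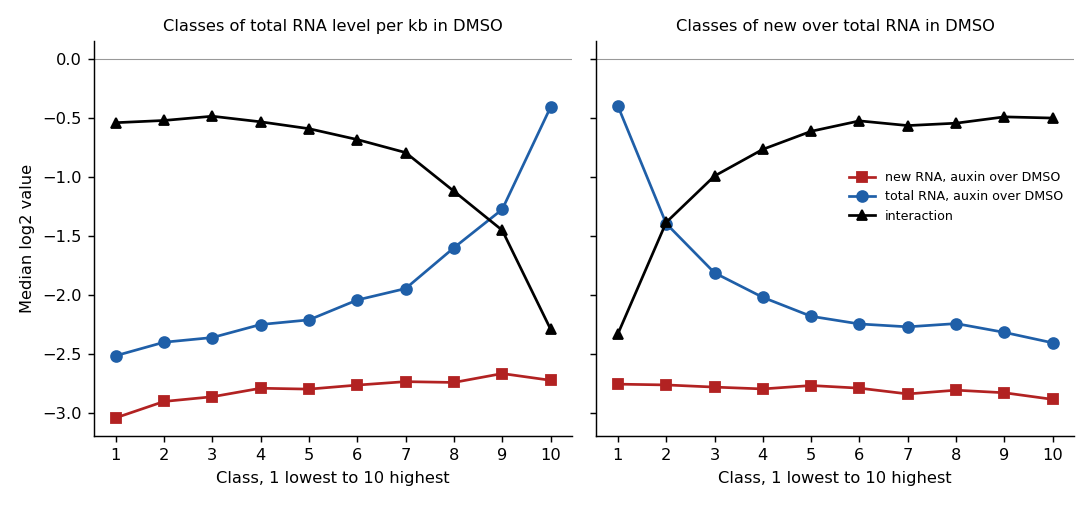
Median log2 values of new RNA change, total RNA change and interaction in 10 classes of members, ranked by total RNA level per kb in DMSO (left) and by new over total RNA in DMSO (right). New RNA stays between -3.04 and -2.66 in every class, while total RNA ranges from -2.51 to -0.40. The list held only deposited new RNA changes between -4.63 and -2.20, which itself narrows the new RNA line.

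Coding length and chromosome were further described. The shortest class, with a median length of 417 bases, had a median interaction of -1.52 and the next, at 651 bases, -1.04; the other 8 classes ranged from -0.85 to -0.55. Ribosomal protein genes are short, and their part in the length pattern was not tested. Chromosome medians ran from -0.87 on chromosome I, over 42 members, to -0.64 on chromosome XIV, over 185. Without the ribosomal protein group the median interaction of the other 2690 members was -0.69, with 1414 lower on the authors' scale and 513 lower and 26 higher than the median feature.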

How the data were processed

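Budding yeast RNA was sequenced from newly synthesized and total RNA fractions. Per the submitters' processing notes, sacCer3 was the genome build and bcl2fastq 2.17.1.14 was used. The aligner, the counter and the origin of the size factors are not given in the sources used here. Per the file headers, the deposited tables hold raw counts per feature, normalized counts (the counts divided by 1 size factor per library, a signal unit), and the authors' log2 fold changes with p-values. The held table for new RNA ends within a line after 2822 features. Size factors, read back from the deposited counts and signal, were 1.59 and 1.56 (new, auxin), 0.613 and 0.657 (new, DMSO), 1.05 and 1.19 (total, auxin) and 1.09 and 0.728 (total, DMSO).

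Raw counts of all 8 libraries entered one edgeR model (version 4.0.16, R 4.3.3, quasi-likelihood F test) with fraction, treatment and their interaction, with those size factors as offsets and Benjamini-Hochberg adjustment over 2821 features. Features with a mean of at least 10 raw counts in each table were kept. The relative interaction shifts the offsets of the new RNA auxin libraries by the median interaction. Values per replicate number used a pseudocount of 0.5. The procedure was checked on simulated counts with a fixed spread and independent libraries, without the selection on new RNA, so the check does not cover that selection. DESeq2 1.42.0 (Wald test), limma-voom 3.58.1, TMM and DESeq2 scaling within fractions, other filters, replicate blocks and leaving out each library were alternatives; overlapping features and those with deposited new RNA changes above -2.5 were left out for function groups, and, added after the data were seen, for the counts over all features, as were ribosomal protein genes, also within the other groups.

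Members and lists were chosen with earlier results of these data known. The GO terms of each function group were rewritten after the GO columns had been read; a feature may be in several groups. Named genes are the 8 lowest and 8 highest called relative to the median feature, with at least 50 normalized counts in both DMSO groups and both numbers agreeing; the lowest and highest of each group; and the tagged genes. Those named otherwise were picked after their values were seen. Coordinates are as deposited.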

Additional observations from a re-analysis of the deposited data

Results flagged for a closer look

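The auxin effect differed between the fractions for 1541 of 2821 features by the edgeR test of the interaction at an adjusted p below 0.05. In each of them new RNA fell further. That share is 54.6% and depends on the scaling and on the list, which held only features with deep falls in new RNA. In 7 of 2821 features, all among the 131 cytosolic ribosomal protein genes tested, both total RNA libraries with auxin lay above both with DMSO. Both new RNA libraries with auxin lay below, as in all 2821 members. The 7 were RPL35A, RPS24A, RPL23B, RPL26B, RPL40A, RPS7A and RPS23B. With 2 libraries per group, such an order in total RNA can arise without a change. The change in total RNA was not called in any of the 7, and the interaction was called lower in all of them.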

How the results depend on the processing

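Scaling changed the most, and TMM and DESeq2 size factors bring the median interaction near 0 by how they are computed. With TMM and DESeq2 size factors within each fraction the median interaction was 0.13 and 0.044, features called lower numbered 795 and 864, features called higher 749 and 536, and features higher than the median feature 433 and 427. Interactions of some named genes turned from negative to positive under both scalings, with a call in the main fit or under that scaling. They were YLL060C (0.79 and 0.70), MSW1 (0.79 and 0.71), YOL093W (0.63 and 0.55), MRPL17 (0.77 and 0.68), YME1 (0.77 and 0.69), YDR334W (0.79 and 0.71), YML082W (0.74 and 0.66), YNL156C (0.21 and 0.12), FLC1 (0.70 and 0.62), ATX2 (0.81 and 0.73), YNL327W (0.78 and 0.70), MNN4 (0.63 and 0.55), YPR176C (0.64 and 0.56), YMR153W (0.71 and 0.63), PTC1 (0.58 and 0.49), SNR76 (0.59 and 0.51) and SRB4 (0.18 and 0.10). A turn of sign with a call was found under TMM only for YIL007C (0.53) and YOL056W (0.40). Genes that turned sign without a call in either fit are not listed, such as PAT1, which went from -0.46 to as high as 0.40. These scalings shift every gene, by 0.84 and 0.76 at the median. Leaving out 1 library at a time gave 1126 to 2003 features lower, 519 to 638 lower and 6 to 41 higher than the median feature, and medians of -0.89 to -0.59. The DESeq2 Wald test gave 1568 lower, and 657 lower and 38 higher than the median feature; limma-voom gave 1619, 662 and 44. A minimum of 50 counts gave 1535, 635 and 31, and no filter changed nothing. Whether same-numbered samples came from 1 culture was not stated. Correlations of their deviations ran from -0.20 to 0.16, which does not settle it. With a replicate block by number the calls were 2053 lower, and 835 lower and 274 higher than the median feature; with a replicate block by culture 2148, 901 and 393. Without ribosomal protein genes, without overlapping features and with authors' new RNA changes below -2.5, 1414 of 2690, 1389 of 2568 and 1323 of 2478 were lower. Over named genes 2497 values kept their side of the threshold, 135 became called, 76 lost the call and 36 turned sign with a call in either fit. The 2497 include values that turned sign while called in neither fit. Over function groups 222 counts and medians held and 68 moved. Promoter motifs were not run. Depth limits the features called higher: total RNA of DOT6 had 8 raw counts in each auxin library.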

Other observations

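Non-coding and doubtful features among the members were few. Of 117 open reading frames described as dubious and tested in total RNA, 5 were members. Of these 5, 4 were lower than the median feature, with a median interaction of -1.89. Dubious frames often lie within other genes. Only 1 of the 5 overlapped no other feature, and it was called lower. The 66 features without any GO term had a median interaction of -0.57, with 10 lower and 1 higher than the median feature. Over 258 GO terms with at least 15 members, the term with the lowest median was rRNA export from nucleus (-2.83) and that with the highest was mitochondrial large ribosomal subunit (-0.27, 18 members).

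RGR1, the gene of Med14, had 1294 and 1564 normalized counts in total RNA from auxin cultures and 3249 and 3667 in total RNA from DMSO cultures, and it had no value in the new RNA list.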
